A study of Rattus norvegicus with 10 samples.

Results

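The neuronal intermediate filament genes Nefl, Nefm, Nefh, Ina, Prph and Synm were described in the hypothalamus of 10 male Wistar rats. The array annotation names 14217 genes singly. Of 31042 probe sets on the Rat Genome 230 2.0 array, 10 name 1 of these 6 genes alone, and 0 probe sets name a member together with another gene. The rats began the study at 3 weeks of age with powdered feed for acclimatization. The C group (5 rats) then received solid chow and the P group (5 rats) stayed on powdered feed for 8 days, until 4 weeks of age, with cages, bedding and water supply designed to avoid other chewing. Hypothalamic RNA of each rat was read on 1 array, and the comparison asks whether chewing a solid diet after weaning goes with a different hypothalamic expression. The rats are named Chow 1 to Chow 5 and Powder 1 to Powder 5 after their labels. Values are log2 signals, and a negative difference means a lower mean in the C group.

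Intermediate filaments are rope-like polymers of many cell types, and those made of neurofilament subunits fill axons and set their calibre. The light (Nefl), medium (Nefm) and heavy (Nefh) neurofilament subunits copolymerize with internexin (Ina), which appears early in neuronal development, and are most abundant in neurons with long, thick axons. Peripherin (Prph) forms filaments in peripheral neurons and in selected central ones, while synemin (Synm) joins filaments of astrocytes, muscle and vessel wall cells to other parts of the cytoskeleton. The label "neuronal" therefore fits Synm less well than the other genes, and its values are kept apart below. In RNA of a whole hypothalamus, fewer cells of a type and less RNA per cell cannot be told apart.

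Some transcripts of hypothalamic neurons were read far above the array medians, and others below them. Pmch, the precursor of melanin-concentrating hormone of lateral hypothalamic neurons, read 12.44 to 13.07 in the C group and 13.04 to 13.15 in the P group, and all values of the array lay between 5.23 and 13.96. Avp, Hcrt, Oxt and Npy averaged 11.89, 10.74, 10.42 and 9.71 over the rats, and Nkx2-1 averaged 8.36. Pomc, Otp, Sim1 and the probe sets of Nr5a1 averaged 6.25 to 7.03, below the lowest array median of 7.367. Probes bind with different strength, so these low values do not show that the transcripts were missing. Chow 1 and Chow 4 had the highest mean of 16 varying probe sets of leptomeningeal fibroblasts, cells of the membranes around the brain, at 0.95 and 0.72 above the average of all arrays. The other 8 rats lay between -0.78 and 0.48 on that measure. Results on the filament genes are therefore also given without these rats.

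The promoters of Ina and Prph are shown because these genes were called lower in the C group, and Synm, called higher, is described beside them. The RefSeq promoter table of build GRCr8 holds 3 of the 6 genes (Ina, Prph and Synm). The 160 bases before the table's start site are printed 5′ to 3′ on the strand of the gene, at chr1:255837969-255838128 (plus strand) for Ina and at chr7:132097129-132097288 (plus strand) for Prph. The annotated span of Prph begins further upstream than this start site. Capitals mark a TATA box (TATAAA) and GC boxes (GGGCGG), both searched on either strand.
Ina: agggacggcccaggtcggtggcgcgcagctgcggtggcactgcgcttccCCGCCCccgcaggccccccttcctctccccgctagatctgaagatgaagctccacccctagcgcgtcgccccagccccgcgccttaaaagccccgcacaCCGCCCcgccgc
Prph: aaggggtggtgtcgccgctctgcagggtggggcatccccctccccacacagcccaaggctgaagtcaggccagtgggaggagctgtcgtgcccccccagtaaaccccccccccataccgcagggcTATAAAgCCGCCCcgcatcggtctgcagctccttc
The window of Prph holds 1 TATA box, whose first base lies 35 bases before the start, directly followed after 1 base by a GC box. The window of Ina holds 2 GC boxes and no TATAAA. Among 33469 windows of this length in the table, 8.49% hold a TATA box, 24.8% a CCAAT box (CCAAT, in neither Ina nor Prph) and 26.6% a GC box. The G and C content was 73.8% for Ina and 67.5% for Prph, and the median over the table was 52.5%. The window of Synm, at 55.6%, holds none of these letters. Nefl and Nefm are direct neighbours among protein-coding genes of chromosome 15 in GRCr8, Nefh lies on chromosome 14, Prph on 7, and Ina and Synm on 1.

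The probe sets of a gene did not carry the same information. The authors' summarization leaves a probe set almost flat where its probes share no signal, and 92.6% of all probe sets had a standard deviation (SD) over the 10 rats below 0.001. Of the 10 filament probe sets 6 varied with an SD above 0.1, 1 per gene, whereas 4.48% of all probe sets did so. Flat probe sets were found for Ina (1387226_at, SD 9.1e-05) and Synm (1376604_at, SD 0.00017, and 1398113_at, SD 0.00022). The flat Ina probe set had a mean of 10.74 and the varying one (1371148_s_at) a mean of 9.66, and these levels cannot be set against each other because probes bind with different strength. The suffix of the varying probe set marks a design whose probes may match more than 1 transcript. For Nefl, the neurofilament light subunit, 1370059_at varied with an SD of 0.11 and 1370058_at with an SD of 0.010. The first thus spread 10.8 times as widely as the second, and both followed each other over the rats at a Pearson r of 0.69 (n = 10, given as a description). Where a gene has several probe sets, the one of largest SD stands for it below, and the differences of all 10 are plotted.

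**Figure D1:**
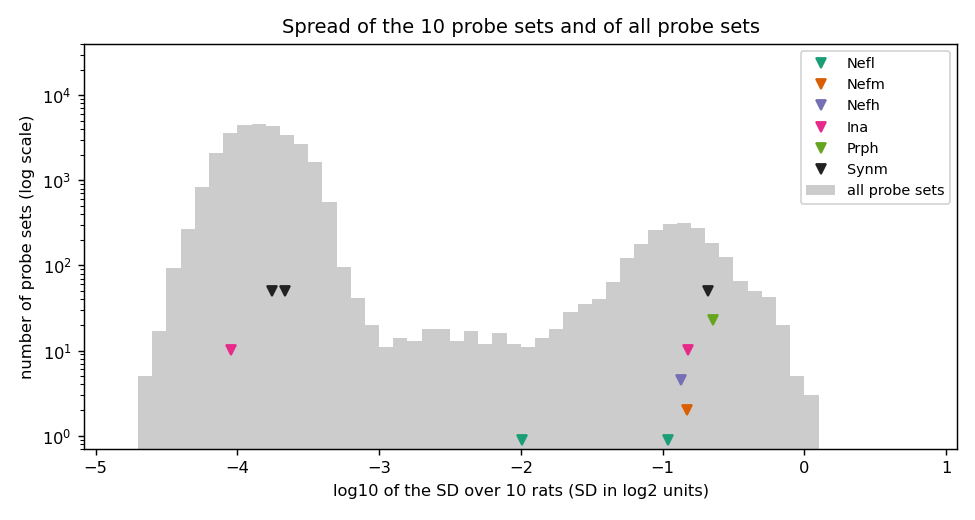
Standard deviation over the 10 rats (log10 scale, horizontal axis) of all 31042 probe sets (grey bars, number on a log scale) and of the 10 filament probe sets (triangles, placed at separate heights by gene for legibility only). Each gene has 1 probe set with an SD above 0.1, and 3 probe sets of Ina and Synm lie among the flat majority.

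Rank products, the method of the study, called 4 of the 10 probe sets lower in the C group and 1 higher, at a false discovery rate (FDR) below 0.05. Among all probe sets they called 0.815% lower and 0.944% higher. Most calls, 206 of 253 lower and 284 of 293 higher, fell on the 1391 probe sets with an SD above 0.1. Among these 14.8% were called lower and 20.4% higher, beside 4 and 1 of the 6 varying filament probe sets. The study listed filament genes among its own calls on these rats, so the count is no independent evidence of a direction. The lower calls were Nefm, Nefh, Ina and Prph, the higher call was Synm, and neither probe set of Nefl was called. Limma called 0 of the 10 after adjustment over all probe sets (adjusted p = 0.9995 for each), and none had an unadjusted p below 0.05. Over all probe sets limma also called 0, with 1100 (3.54%) at an unadjusted p below 0.05. The median difference of the 6 varying probe sets was -0.11, and it was 0.03 over all varying probe sets. The mean was lower in the C group for 8 of the 10, some of them flat, and for 51.2% of all probe sets. Among varying probe sets it was lower for 5 of the 6, and for 34.9% of all. Exact permutation p-values below 0.05 were found for 0 of the 10 and for 3.09% of all. For none of the 10 were the groups fully separated, as they were for 0.432% of all probe sets.

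Nefm, the medium neurofilament subunit, read 10.38, 10.55, 10.36, 10.51 and 10.17 in Chow 1 to Chow 5. In Powder 1 to Powder 5 it read 10.38, 10.59, 10.53, 10.52 and 10.69. Chow 5 was the lowest rat and Powder 5 the highest, and 4 of 5 C rats lay below the mean of the P group. The C group mean was 10.39 ± 0.15 (SD, n = 5) and that of the P group 10.54 ± 0.12, a difference of -0.15 (standard error, SE, 0.08, 95% interval -0.33 to 0.04, FDR 0.00681 by rank products), so that the P group stood 1.11 times as high. The exact permutation test over all 252 assignments of 5 against 5 rats gave p = 0.135 (two-sided). Leaving out Chow 5 brought the difference to -0.09 with the call kept, and the call was lost without Powder 2 (-0.13) or Powder 5 (-0.11).

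Nefh, the heavy subunit, whose long tail is heavily phosphorylated, read 10.37, 10.69, 10.47, 10.59 and 10.40 in Chow 1 to Chow 5. It read 10.48, 10.71, 10.52, 10.69 and 10.74 in Powder 1 to Powder 5. Chow 1, Chow 3 and Chow 5 lay below every P rat, while Chow 2 lay among the highest P rats. Chow 3 did so narrowly, at 10.472 beside 10.481 in Powder 1. The difference was -0.12 (SE 0.08, 95% interval -0.30 to 0.05, FDR 0.00560 by rank products, exact permutation p = 0.151, n = 5 per group). The call was lost without Powder 5, at -0.10.

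Nefl, which forms the core of the filament, read 11.16, 11.27, 11.01, 11.02 and 11.04 in Chow 1 to Chow 5 by its varying probe set. In Powder 1 to Powder 5 it read 11.12, 11.16, 11.001, 11.05 and 11.32. The ranges of the groups nearly coincided, with a difference of -0.03 (SE 0.07, 95% interval -0.19 to 0.13, FDR 0.189 by rank products as lower, exact permutation p = 0.651, n = 5 per group). The second probe set read 11.08 to 11.10 in the C group and 11.09 to 11.11 in the P group, with a difference of -0.0033 (SE 0.0065). The interval of the first probe set includes the differences of Nefm and Nefh, and whether Nefl differed from them in its response was not tested.

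Ina, internexin, read 9.53, 9.78, 9.81, 9.61 and 9.34 in Chow 1 to Chow 5 by its varying probe set, and 9.64, 9.84, 9.65, 9.78 and 9.61 in Powder 1 to Powder 5. Chow 1, Chow 4 and Chow 5 lay below every P rat, Chow 4 by less than 0.01, and Chow 2 and Chow 3 above most of them. The difference of -0.09 (SE 0.09, 95% interval -0.30 to 0.12, FDR 0.0284 by rank products, exact permutation p = 0.373, n = 5 per group) was carried by Chow 5 in large part, as it was -0.03 without that rat. The call stood in 3 of 10 cases with 1 rat left out, those without Chow 2, Chow 3 or Powder 3. It was lost at -0.07 without Chow 1, -0.09 without Chow 4, -0.03 without Chow 5, -0.11 without Powder 1, -0.06 without Powder 2, -0.07 without Powder 4 and -0.12 without Powder 5. The flat probe set differed by -4.6e-05.

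**Figure D2:**
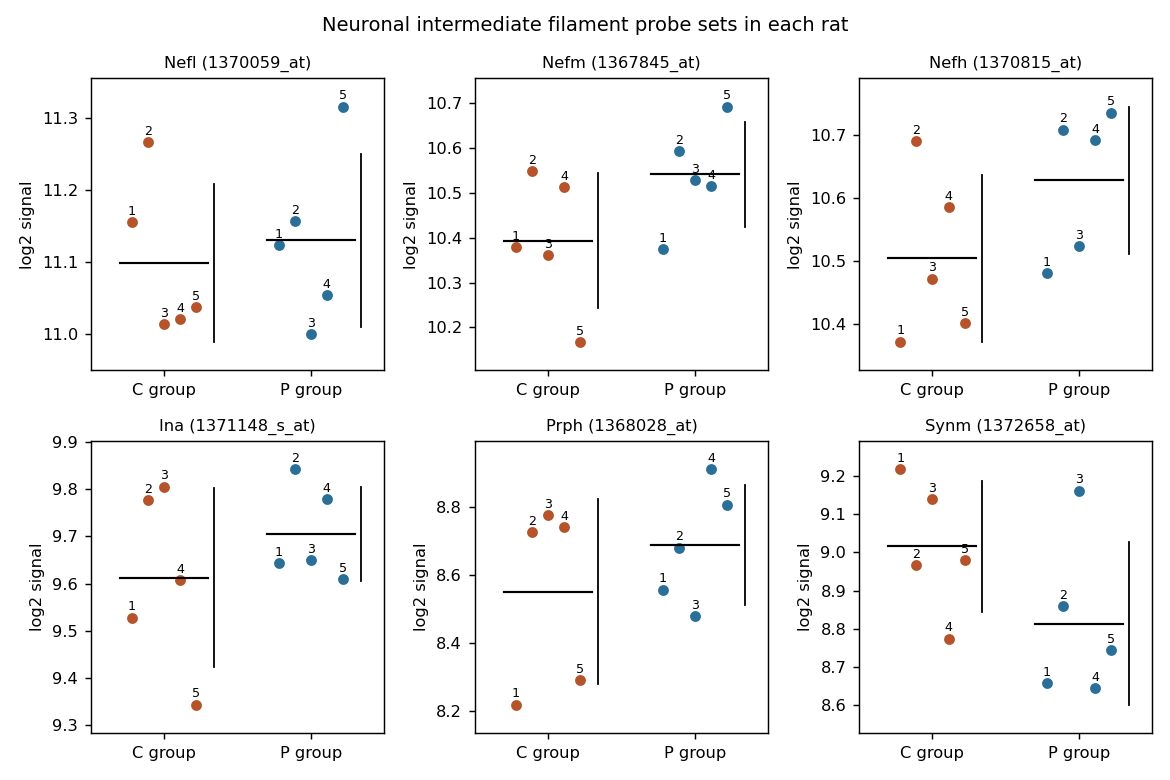
Log2 signal of the varying probe set of each gene in every rat (vertical axes), by diet group, with the rat's number beside its point. Horizontal lines are group means and vertical bars 1 SD on either side (n = 5 per group). The groups overlap in every panel, and the C rats of Prph lie at separate levels, 8.22 to 8.29 and 8.72 to 8.78.

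Prph, peripherin, read 8.22, 8.72, 8.78, 8.74 and 8.29 in Chow 1 to Chow 5. In Powder 1 to Powder 5 it read 8.56, 8.68, 8.48, 8.91 and 8.81. Chow 1 and Chow 5 were lower than every other rat, whereas the other 3 C rats were all above the mean of the P group. The group means therefore differed by -0.14 (SE 0.14, 95% interval -0.45 to 0.18, FDR 0.0199 by rank products, exact permutation p = 0.373, n = 5 per group) although the median of the C group, 8.72, was above that of the P group, 8.68. The call was lost without Chow 1 (-0.05), Chow 5 (-0.07), Powder 4 (-0.08) or Powder 5 (-0.11). Prph had the largest SD over the 10 rats of the 6 varying filament probe sets, 0.23, and Nefl the smallest, 0.11.

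Synm, synemin, was called in the other direction, and whether its response differed from that of the other genes was not tested. It read 9.22, 8.97, 9.14, 8.77 and 8.98 in Chow 1 to Chow 5 and 8.66, 8.86, 9.16, 8.65 and 8.75 in Powder 1 to Powder 5. Powder 3 was the second highest of all rats, and without it the other 4 P rats reached at most 8.86, a level that 4 of 5 C rats exceeded. The C group mean was 9.02 ± 0.17 (SD, n = 5) and the P group mean 8.81 ± 0.21, a difference of 0.20 (SE 0.12, 95% interval -0.07 to 0.47, FDR 0.00696 by rank products, exact permutation p = 0.143), which makes the C group 1.15 times as high. The difference lay between 0.15 and 0.29 with any 1 rat left out, and Synm was called in 10 of 10 such cases. The 2 flat probe sets differed by 2.6e-05 and -9.7e-05.

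**Figure D3:**
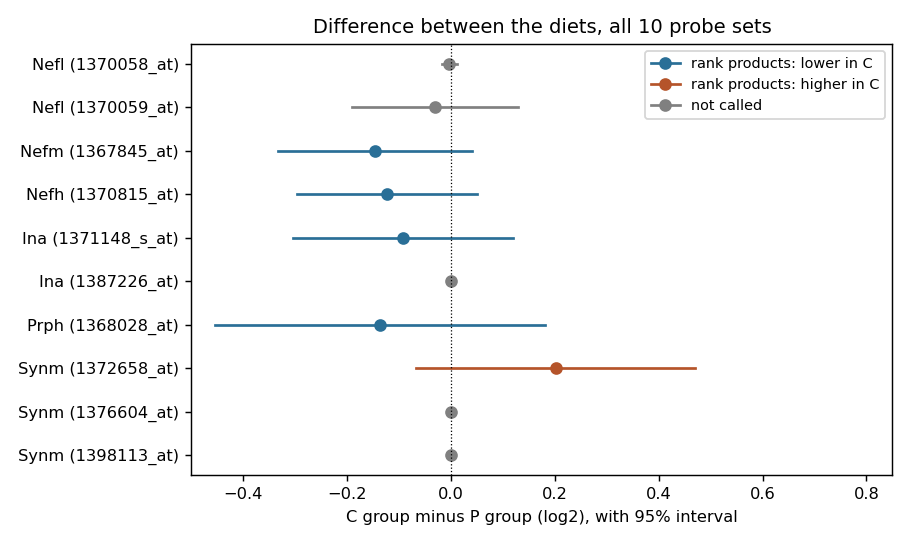
Difference between the C and P group means (log2, horizontal axis) of the 10 probe sets, with the 95% interval of the linear model. Blue marks a lower and red a higher call by rank products, and grey no call. All intervals include 0.

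The rat left out decided how many filament genes were called. The lower calls numbered between 0 and 4 with 1 rat left out. There were 0 without Powder 5, the rat with the highest Nefl, Nefm and Nefh by their varying probe sets. There were 2 without Chow 1, Chow 5, Powder 2 or Powder 4. Over all probe sets the lower calls, 253 with every rat, numbered 121 without Powder 5, 127 without Powder 2, 157 without Powder 4, 224 without Chow 1 and 267 without Chow 5. Without Chow 1 and Chow 4 the calls of Nefm (-0.18) and Nefh (-0.11) stood and those of Ina (-0.06), Prph (-0.09) and Synm (0.21, FDR 0.0531) were lost. Over all probe sets 252 lower calls (0.812%) and 46 higher calls (0.148%) were made without these rats, against 253 and 293 with them. When rank products were run on the 1391 varying probe sets alone, or replaced by rank sums, 0 of the filament probe sets were called in either direction. These settings called few probe sets of any gene, 4 lower and 1 higher of 1391 (0.288% and 0.0719%) and 6 lower and 1 higher of 31042 by rank sums, so the loss was not particular to the filament genes. The differences of Nefm, Nefh, Ina, Prph and Synm by their varying probe sets kept their direction under all 15 settings in which they were recomputed. Among these, the limma fits with a replicate block or another variance estimate cannot change the difference, and 10 settings left out 1 rat each.

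Nefm varied together with Nefh, and Nefh with Prph, between rats. Over the 10 rats, Nefm and Nefh correlated at a Pearson r of 0.86 (permutation p = 0.0008, 0.0120 adjusted over the 15 pairs of the 6 genes) and a Spearman rho of 0.87 (permutation p = 0.00211, 0.0316 adjusted). Without Chow 5 and Powder 5, the rats farthest from the median of Nefm, r was 0.86 (exact permutation p = 0.0106, n = 8). Within the C group r was 0.81 and within the P group 0.82. With values centred on the mean of each diet r was 0.81 (permutation p = 0.00404, 0.0606 adjusted), and without Powder 5 it was 0.82 (0.0590 adjusted). Of 1014 probe sets with an SD above 0.1 that name a single gene, Nefh ranked 2 by its r with Nefm, and Nefm ranked 5 by its r with Nefh.

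Nefh and Prph correlated at a Pearson r of 0.80 (permutation p = 0.00567, 0.0425 adjusted over the 15 pairs) and a Spearman rho of 0.68 (permutation p = 0.0349, 0.204 adjusted). Without Chow 1 and Powder 5, the rats farthest from the median of Nefh, r was 0.69 (exact permutation p = 0.0564, n = 8), so the relation rests in part on these rats. It was 0.77 within the C group and 0.82 within the P group. Chow 1 and Chow 5 were the lowest rats for both genes. The adjusted p was above 0.05 without any 1 of 8 rats, between 0.0586 without Powder 2 and 0.150 without Chow 1, and stayed below it without Chow 3 or Powder 3. Ina and Prph followed at an r of 0.73 (permutation p = 0.0159, 0.0796 adjusted) and a rho of 0.49 (permutation p = 0.153). Without Chow 5 and Powder 2 their r was 0.68 (exact permutation p = 0.0558, n = 8).

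**Figure D4:**
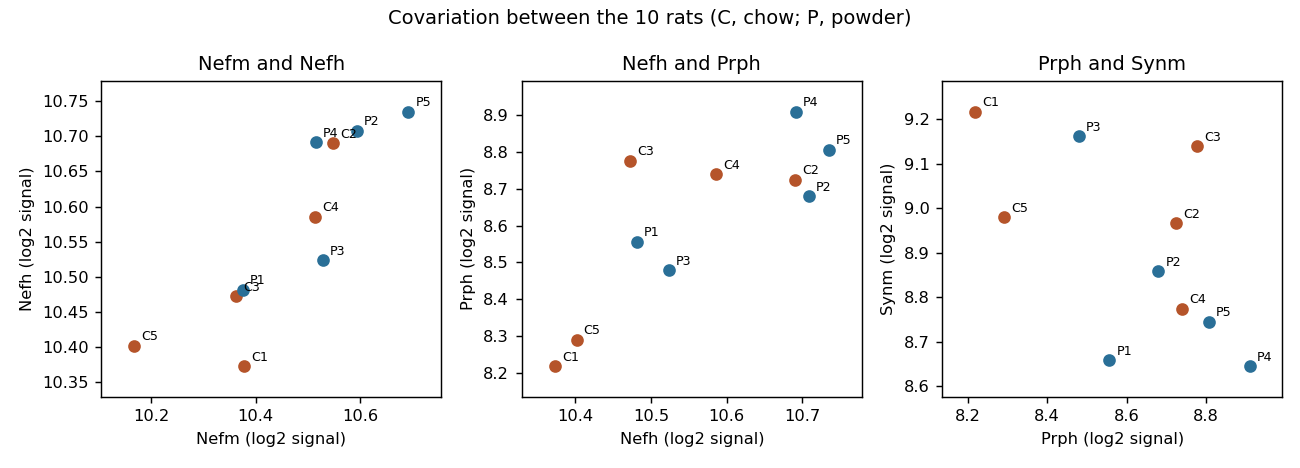
Log2 signals of 2 genes against each other in the 10 rats, labelled C for chow and P for powder with the rat's number. Nefm and Nefh (r = 0.86) and Nefh and Prph (r = 0.80) run together, and Prph and Synm (r = -0.58) run oppositely, without passing the test.

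As read by its varying probe set, the light subunit had a lower r with its partners, a contrast that was not tested. Nefl correlated with Nefm at an r of 0.53 (permutation p = 0.119) and a rho of 0.58 (permutation p = 0.0905), and with Nefh at an r of 0.51 (permutation p = 0.136) and a rho of 0.49 (permutation p = 0.157). None of these passed after adjustment over the 15 pairs (0.199 and 0.204 for r). Without Chow 2 and Powder 5, the rats of highest Nefl, both fell, to 0.11 and 0.03 (exact permutation p = 0.803 and 0.931, n = 8), so these relations rest on those rats. With Ina and Prph the r of Nefl was 0.12 and 0.16. Nefm, its neighbour on the chromosome, ranked 24 among the 1014 varying probe sets by r with Nefl. These values may depend on the probe set, as no r was computed for the other probe set of Nefl. In that probe set Powder 2, Powder 5 and Chow 2 were the highest rats and Chow 5 and Chow 3 the lowest. The same rats were highest and lowest for Nefm. The r of Synm was below 0 with each of the other 5 genes, between -0.58 (Prph) and -0.16 (Ina), and 0 of these 5 pairs passed. With values centred on the diet mean, its r with Nefm went from -0.33 to -0.08 and that with Ina to 0.00088. Within groups the sign varied, with an r of 0.18 with Nefl and 0.07 with Ina in the C group, and of 0.18 with Nefm in the P group. Its r with Prph of -0.58 had a permutation p of 0.0808 (0.163 adjusted) and its rho of -0.65 a permutation p of 0.0486 (0.204 adjusted). Without Chow 1 and Chow 5, the rats of lowest Prph, r was -0.39 (exact permutation p = 0.347, n = 8).

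**Figure D5:**
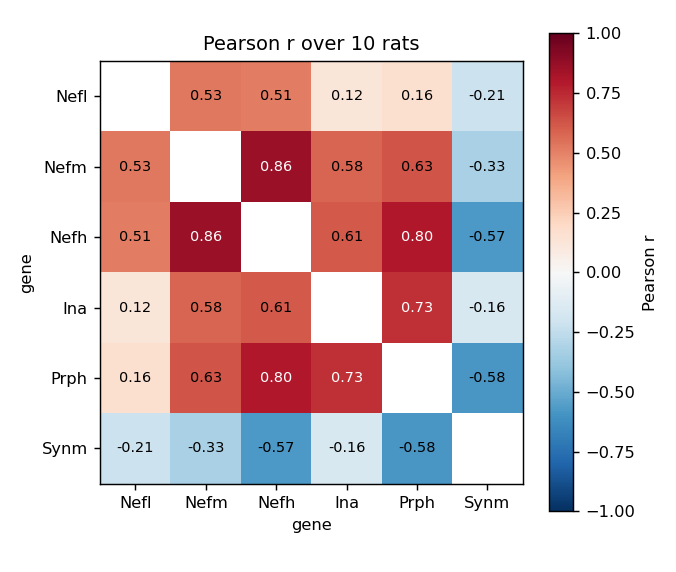
Pearson r over the 10 rats between the varying probe sets of the 6 genes (both axes), from blue (negative) to red (positive). All 10 pairs among Nefl, Nefm, Nefh, Ina and Prph are above 0 and all 5 pairs with Synm below 0 over the pooled rats, and 2 of the 15 pairs passed after adjustment.

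The rats at the ends of these patterns differed between genes. On the mean deviation of Nefl, Nefm and Nefh from their averages over all rats, Powder 5 stood at 0.20, Chow 2 at 0.12 and Powder 2 at 0.10. Chow 5 stood lowest at -0.18. The remaining 6 rats lay between -0.10 and 0.04. The order differed for Prph, where Chow 1 was lowest at -0.40, Chow 5 followed at -0.33 and Powder 4 was highest at 0.29. Chow 3 was high for Prph (0.16) and Ina (0.15) and low for the neurofilament mean (-0.10). Synm was highest in Chow 1 (0.30), Powder 3 (0.25) and Chow 3 (0.22) and lowest in Powder 4 (-0.27) and Powder 1 (-0.26). The array medians differed little, from 7.367 to 7.379 over the rats.

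The genes whose pattern over the 10 rats was most like that of the filament genes were sought among 1009 other varying probe sets naming a single gene, as a description. Closest to the mean of Nefl, Nefm and Nefh were Scn4b, a sodium channel beta subunit (r = 0.89), the kinesin gene Kif1c (0.88), the transcription factor gene Pou3f3 (0.85), Mrpl22, a mitochondrial ribosomal protein gene (0.85), and Cplx1, complexin, a regulator of transmitter release (0.84). Of the 1009 probe sets 1.49% had an r above 0.7 with this mean. Of these 5 genes, rank products called Scn4b lower at -0.19 (SE 0.13) and Kif1c lower at -0.14 (SE 0.09). Closest to Prph were the calcium sensor gene Ncs1 (r = 0.91), C2h3orf80 (0.90), Chodl, a lectin-like membrane protein gene (0.88), the orphan nuclear receptor gene Esrrg (0.88) and Nat8l, which makes N-acetylaspartate in neurons (0.88). For Prph 4.06% of the 1009 were above 0.7. Of its 5 genes, C2h3orf80 was called lower at -0.10 (SE 0.09) and Nat8l lower at -0.09 (SE 0.07). Closest to Synm were the aminopeptidase gene Erap1 (r = 0.85), the peptide gene Vip (0.77), the protein kinase inhibitor gene Pkig (0.73), the retinol dehydrogenase gene Rdh12 (0.72) and S100a4, a calcium-binding protein gene (0.71). For Synm 0.595% were above 0.7. Rank products called both Erap1, at 0.24 (SE 0.11), and Vip, which neurons of the suprachiasmatic nucleus make, at 0.60 (SE 0.40), higher in the C group. All these genes were picked on the same rats for following patterns that hold the diet difference, so their calls are no separate results. Among all varying probe sets 14.8% were called lower and 20.4% higher.

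Other genes of the filament and axonal cytoskeleton had 1 call among 76 probe sets, a share near that of all probe sets (0.815% lower and 0.944% higher), and 6 of the 76 varied. The 1 call was among these 6, and of all varying probe sets 14.8% were called lower and 20.4% higher. Of 15 probe sets for 12 intermediate filament genes of other cells 1 was called, Gfap, the filament of astrocytes, higher by 0.16 (SE 0.11), with a median difference of the list of -3e-05. Gfap read 10.76 to 11.25 in the C group and 10.58 to 11.01 in the P group. Vim, vimentin, differed by 0.12 (SE 0.14) and was not called. Rank products called 0 of 16 probe sets of filament linkers such as plectin and dystonin, and 0 of 14 of neurofilament kinases and phosphatases. They also called 0 of 4 of neurofilament turnover, 0 of 11 of axonal transport motors and 0 of 16 of axonal microtubule proteins. The medians of these lists lay within 0.0001 of 0, as did that of all probe sets, and limma called 0 in any of them. In these lists 4 probe sets varied, Csnk2a1, Myo5a, Kif5c and Map1b. Map1b, which stabilizes growing axons, stood at -0.41 in Chow 5 and -0.31 in Powder 5, and between -0.06 and 0.18 in the other 8 rats. The same rats were lowest for the kinase subunit gene Csnk2a1 (-0.41 and -0.21) and for the mean of the motor genes Myo5a and Kif5c (-0.37 and -0.24). Chow 5 was thus low both for these genes and for Nefm and Ina. Powder 5 was low for these genes and highest for the mean of Nefl, Nefm and Nefh.

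Markers of cell types were read beside the filament genes. For the counts here and in the next paragraph, 0.815% of all probe sets were called lower and 0.944% higher. Among all varying probe sets the shares were 14.8% and 20.4%. Of 10 probe sets of neurons in general, such as Snap25 and Syn1, 0 varied and 0 were called, so the missing calls carry little information. Of 11 of hypothalamic neurons 5 varied and 4 were called lower, the largest Oxt at -0.25 (SE 0.11), Hcrt at -0.23 (SE 0.18) and Pmch at -0.21 (SE 0.11). Npy, the varying one without a call, went the other way at 0.10 (SE 0.08). Oligodendrocytes, which wrap axons in myelin, had 13 varying of 14 probe sets and 0 calls. Their mean deviation was -0.24 to 0.24 in the C group and -0.15 to 0.11 in the P group, lowest in Chow 5, the rat of lowest Nefm and Ina, and -0.01 in Powder 5, the rat of highest Nefm. Histaminergic neurons had 1 of 7 probe sets called, Hdc, the histamine-forming enzyme, higher by 0.08 (SE 0.08). Of dopaminergic neurons 2 of 5 were called higher, Slc6a3 by 0.23 (SE 0.37) and Th by 0.14 (SE 0.25). Of cortical and hippocampal neurons 1 of 6 was called, Slc17a7, higher by 0.30 (SE 0.25), and of thalamic neurons 1 of 11, Tnnt1, lower at -0.42 (SE 0.25). Slc17a7 read 6.62 to 8.05 in the C group and 6.66 to 6.79 in the P group, and its other probe set was flat. The mean deviation of the 2 varying cortical and hippocampal probe sets was 0.85 in Chow 1 and between -0.42 and 0.07 in the other rats.

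Beside the higher Synm, 1 of 14 probe sets of astrocytes was called, the water channel gene Aqp4, higher by 0.09 (SE 0.07). The mean deviation of the 4 varying astrocyte probe sets was 0.17 in Chow 1, the rat of highest Synm, between -0.06 and 0.07 in Chow 2 to Chow 5, and between -0.07 and -0.01 in the P group. Powder 3 and Chow 3, the next highest for Synm, stood below average on it, at -0.035 and -0.027. Mural cells and smooth muscle had 1 varying of 9 probe sets and 0 calls, at 0.27 in Chow 1 and -0.15 to 0.12 in the other rats, lowest in Chow 3. Ependyma and tanycytes had 2 of 7 called lower, both for Tmem212 (-0.29 and -0.10), and 1 higher, Rarres2 (0.17, SE 0.21). Leptomeningeal fibroblasts had 16 of 19 called higher, the largest Col3a1 by 0.36 (SE 0.34), Col1a2 by 0.35 (SE 0.41) and Ogn by 0.32 (SE 0.48). That list was high in Chow 1 and Chow 4, while Synm was highest in Chow 1 and lowest of the C group in Chow 4. The part of these cells in the filament results was not tested.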

How the data were processed

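Total RNA of the hypothalamus of 10 rats was labelled and hybridized to 1 Affymetrix Rat Genome 230 2.0 array each. The authors summarized the probes of each set by FARMS, a factor analysis, under R 2.7.2, and the deposited values, used as they are, lie on a log2 scale by their range, which no source states. An array has no read depth, and the number of rats limits the precision. The table holds 31099 probe sets, from which 57 hybridization controls were removed. Groups and numbers came from the sample titles, and 0 value columns were left unmapped. By the platform annotation 20826 probe sets name 1 gene, 436 several and 9780 none. All 10 members carry their gene's symbol in RefSeq too.

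Rank products, the study's method, were computed over the 25 pairs between groups, with 100 permutations of each array and an FDR below 0.05, in Python 3.11.15 (numpy 2.4.6, pandas 2.3.3, scipy 1.17.1). Limma 3.58.1 in R 4.3.3 gave differences, standard errors, intervals and p-values adjusted by Benjamini-Hochberg over 31042 probe sets. Each exact test enumerated the 252 ways to assign the rats to groups, and adjusted over all probe sets its smallest p was 1. Correlations used 100000 resamples, or all orders for fewer than 10 rats, both two-sided. Drawings were made with matplotlib 3.10.9. The tests were run on simulated arrays in which all probe sets had the same spread. Here most probe sets are flat and few vary, so those runs cannot tell how well the FDR of rank products holds. Named genes were all members, up to 3 called genes per list and direction, and the 5 genes most like each of 3 patterns. Vim, the varying Csnk2a1, Myo5a, Kif5c and Map1b, and the remaining markers of hypothalamic neurons were named after their values were seen. Snap25, Syn1, plectin and dystonin were named only as examples of their lists. Members and lists (6 of the pathway, 11 of cell types) were chosen with earlier results of these data known. Alternatives were other normalizations, filters, tests, thresholds, a replicate block, and leaving out rats. The choice of the probe set of largest SD per gene in rank products was added after seeing the data.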

Additional observations from a re-analysis of the deposited data

How the results depend on the processing

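The 4 lower calls among the filament probe sets became 2 at an FDR below 0.01, 2 without Chow 1 and Chow 4, and 0 by limma, by rank sums, on varying probe sets alone and by limma with the replicate block. Over all probe sets, rank sums called 6 lower and 1 higher, varying probe sets alone gave 4 and 1 of 1391, and limma gave 0. With 1 rat left out the filament calls numbered 0 to 4. The single higher call became 0 by limma, by rank sums, on varying probe sets alone, by limma with the replicate block and without Chow 1 and Chow 4, and stayed at 1 with any 1 rat left out. Quantile normalization, median centring, a filter on the mean and 1 probe set per gene left 3 or 4 lower calls and 1 higher call. The 2 correlated pairs became 1 by Spearman's rho, 1 without Chow 1 and Chow 4, 0 with values centred on the diet mean, and 0 to 2 with 1 rat left out. The cause of these changes was not tested. Differences reversed for probe sets near 0: with 1 rat left out, Nefl reached 2.2e-05 (1370058_at, from -0.0059) and 0.0152 (1370059_at, from -0.0727), Ina 1387226_at lay between -8.0e-05 and 3.2e-07, and Synm 1376604_at between -7.3e-05 and 9.4e-05, or at -0.0017 after median centring. The r of Ina and Synm turned to 0.00088 with values centred on the diet mean, and with 1 rat left out that of Nefl and Ina lay between -0.0865 and 0.26 and that of Nefl and Prph between -0.0398 and 0.31. Rank products over same-numbered pairs, as a replicate block, kept 4 lower and 1 higher call, but the numbers do not pair the rats (r of deviations -0.33 to 0.28). On arrays the number of rats limits what can be seen.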
